A study of Arabidopsis thaliana with 29 samples.

Results

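Leaves of Arabidopsis plants that over-express GDU6 were compared with leaves of untransformed Columbia wild type. Each group had 2 libraries, labelled as biological replicates, and whether Cuffdiff's p-values measure the spread between libraries or between sequencing runs is not given in the sources used here. The wild type carried no transgene, and the 35S-GDU6 plants carried GDU6 under the CaMV 35S promoter, a viral promoter active in most plant cells, in the same Columbia background and brought to homozygosity. Plants of both groups were untreated and grew on soil for 23 days per the growth label, with 16 h of light and 8 h of dark at 22 C and 120 uE (the design text gives 4 weeks). Each library was made from all leaves of 4 to 6 plants and sequenced in 2 runs of paired reads of 100 bases. The comparison rests on the entries of the authors' deposited table for which Cuffdiff made a test, which are 17285 of 32650. The table gives 1 FPKM value (sequenced fragments per transcript length and library size) per gene and group, so there is no value per library, no SD, and the depth is unknown. GDU6 is represented by a single transgenic line, so effects of GDU6 and of the place of insertion cannot be told apart, and nothing in the labels says how the plants of both replicates were kept apart.

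GLUTAMINE DUMPER (GDU) proteins are small plant proteins with 1 segment that crosses the membrane. Plants that over-express GDU1 export amino acids from their cells and secrete glutamine at the leaf margin, and GDU1 acts with LOG2, a RING-type ubiquitin ligase that sits at the plasma membrane. The LUL proteins are relatives of LOG2.

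GDU6 (AT3G30725, chromosome 3, 12352509 to 12352844, TAIR10) was read at 9.14 FPKM in wild type and at 30183 FPKM in 35S-GDU6. That is a 3302-fold higher level (log2 ratio 11.69, SE at most 2.88; authors' deposited table, q = 0.00018). The label of the line is borne out, and the transgene transcript alone held 3.46% of the summed FPKM of all tested entries in the line, against 0.00109% in wild type. A q of 0.00018 belongs to p = 5e-05, the smallest p the authors' deposited table holds, which 4790 of the called entries share. The standard errors (SE) given here were computed back from p, so at this floor they are upper limits of 0.25 times the log2 ratio.

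Of the other family members, GDU1 rose from 4.85 FPKM in wild type to 7.62 FPKM in 35S-GDU6 (log2 ratio 0.65, SE at most 0.16) and GDU3 rose from 6.46 FPKM in wild type to 13.3 FPKM in 35S-GDU6 (log2 ratio 1.04, SE at most 0.26). The other 4 did not pass q below 0.05. GDU2 was at 2.63 FPKM in wild type and 1.81 FPKM in the line, GDU4 at 8.7 and 10.9 FPKM, GDU5 at 2.58 and 3.72 FPKM, and GDU7 at 3.03 and 0.801 FPKM. All 6 thus stayed below 14 FPKM in both groups, far under the level of the transgene. The GDU4 entry lies on a stretch of overlapping reads shared by 47 entries, where reads of neighbouring genes cannot be told apart. Among the ubiquitin ligases, LOG2 rose from 19.4 FPKM in wild type to 32.8 FPKM in 35S-GDU6 (log2 ratio 0.76, SE at most 0.19) and LUL1 rose from 6.09 FPKM in wild type to 8.05 FPKM in 35S-GDU6. LUL2, LUL3 and LUL4 were not called, with log2 ratios of 0.36, 0.27 and 0.03.

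In all, 8438 of the 17285 tested entries (48.8%) passed the authors' q below 0.05. 4311 entries (24.9%) were higher in 35S-GDU6 and 4127 (23.9%) were lower, and the median log2 ratio of all tested entries was 0.00. The large changes were mostly gains: 1180 called entries (6.83%) were at least 2-fold higher and 382 (2.21%) at least 2-fold lower, and at 8-fold the counts were 159 and 7. Gains and losses also lay at different levels. Of the 997 tested entries below 1 FPKM in wild type, 384 were called higher and 34 lower, whereas of the 1193 at 100 FPKM or more, 185 were called higher and 564 lower. An entry below 1 FPKM in wild type could be tested mainly where it was higher in the line, so the first split is partly set by which entries were tested. The 5 nuclear chromosomes were alike, with 23.7% to 26.3% of their entries called higher and 23% to 24.7% called lower. Of the tested entries 9 are listed at 0 in wild type and 6 in the line, and no fold is given for these.

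**Figure D1:**
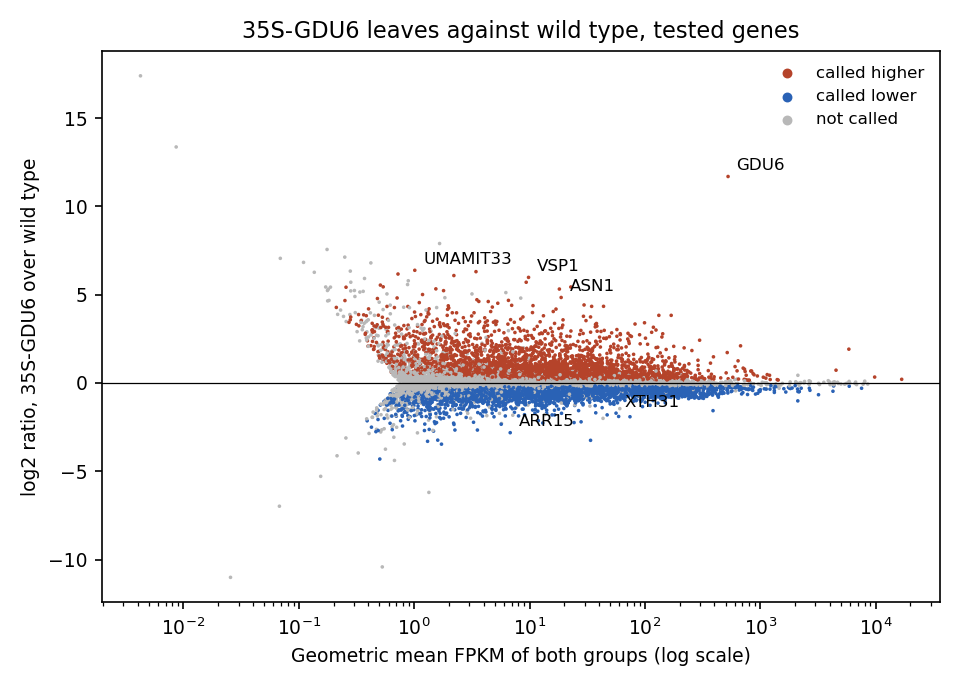
Log2 ratio of 35S-GDU6 over wild type (y axis) against the geometric mean FPKM of both groups (x axis, log scale) for the tested entries with a value above 0 in both, 1 point per entry, red where called higher, blue where called lower and grey where not called. GDU6 stands apart from all other called entries at 11.69, the red points reach farther from 0 than the blue ones, and the widest uncalled ratios lie at the lowest levels.

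From here on, a pair of FPKM values runs from wild type to 35S-GDU6. Each count of called list members is to be read beside the 24.9% higher and 23.9% lower of all tested entries. Among called entries of a single named gene with at least 5 FPKM in either group, the 15 largest gains began with GDU6 itself. UMAMIT33, a member of a family of amino acid exporters, rose from 0.111 to 9.23 FPKM (83.2-fold). TPS03, a terpene synthase, was at 0.0854 and 6.13 FPKM, and NATA1, which acetylates ornithine and is induced by jasmonate, at 0.268 and 18.15 FPKM. The vegetative storage proteins VSP1 and VSP2 rose to 77.7 and 114 FPKM, and the asparagine synthetase ASN1 to 100.4 FPKM. PYK10, a beta-glucosidase best known from roots, was at 0.243 and 9.76 FPKM. The others of the 15 were BT2, RTFL21, ERF6, CNI1, WRKY53, ACS11 and WRKY40, with log2 ratios of 4.51 to 5.43.

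The 15 largest losses were smaller, with log2 ratios of -2.82 to -1.71. ARR15, a response regulator that cytokinin induces and that dampens the cytokinin signal, fell from 18 to 2.56 FPKM (log2 ratio -2.82, SE at most 0.69). IPT3, which makes cytokinin in the phloem, fell from 28.6 to 5.93 FPKM. The flavonoid enzymes chalcone synthase (TT4) and flavonol synthase (FLS1) fell to 25.1 and 4.84 FPKM from 88.1 and 16.9. The light-stress protein ELIP1 fell from 15.3 to 4.2 FPKM, the B-box factor BBX31 from 5.55 to 1.43 FPKM and the nicotianamine synthase NAS4 from 34.3 to 10.4 FPKM. PFA-DSP2, GRP9, CP1, 4CL3, BGLU47, HDT4, LSU2 and XTH31 complete the 15. The 4CL3 entry lies on a stretch shared by 12 entries.

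By absolute level the largest gain after GDU6 was that of AT3G08520, a ribosomal protein L41 family gene, from 3018 to 11353 FPKM. Its entry lies on a stretch shared by 2 entries. The next were the light-harvesting genes CAB1, from 15649 to 18039 FPKM, and LHB1B1, from 3529 to 5818 FPKM. The largest losses were those of RUBISCO activase (RCA), from 8378 to 6794 FPKM, of the RUBISCO small subunit RBCS1B, from 3005 to 1485 FPKM, and of the ferredoxin gene FED A, from 4026 to 2534 FPKM. These losses were 1.23-fold, 2.02-fold and 1.59-fold.

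**Figure D2:**
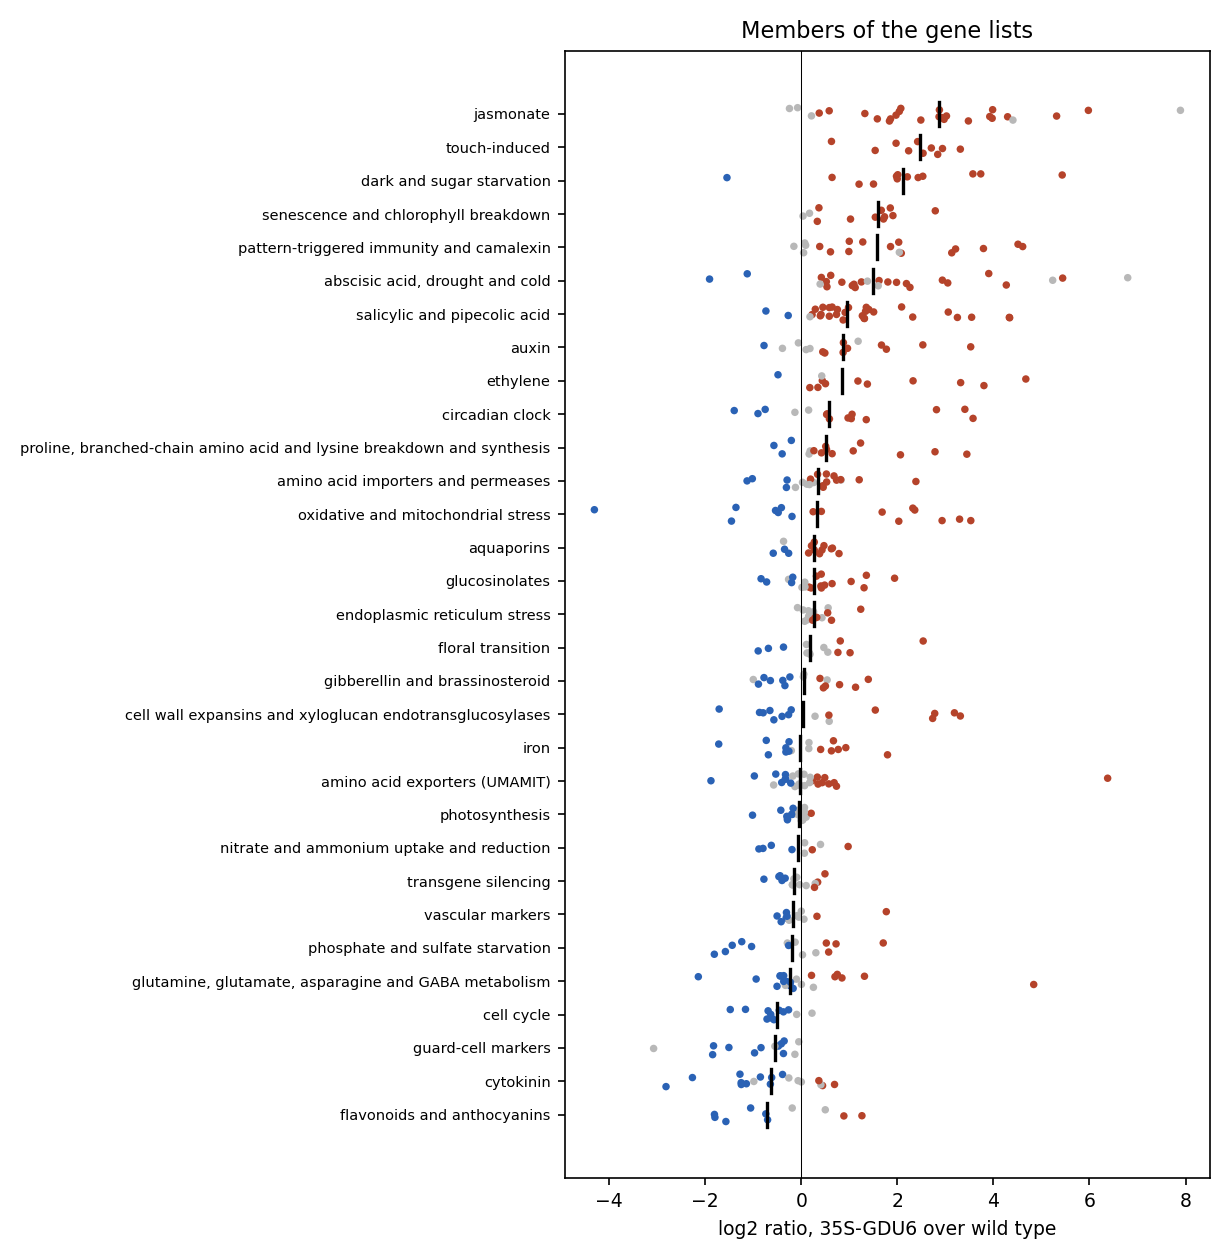
Log2 ratio of 35S-GDU6 over wild type (x axis) for the tested members of the gene lists with at least 10 of them (rows), red where called higher, blue where called lower and grey where not called, with the list median as a black bar. The jasmonate, touch and starvation lists have medians above 2, and the flavonoid and cytokinin lists have medians below -0.6.

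Jasmonate is a fatty-acid-derived hormone of the wound response: lipoxygenases, AOS, AOC and OPR3 make it, the receptor COI1 removes JAZ repressors, and MYC2 then switches on target genes such as VSP1 and VSP2. JAZ genes are themselves targets. Of 27 tested members 22 were higher and 0 lower, against 24.9% and 23.9% of all tested entries, and the median log2 ratio was 2.87, against 0.00 for all.

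All 9 tested genes of lipoxygenases, AOS, AOC and OPR3 rose. LOX2, the chloroplast lipoxygenase of this pathway, rose from 135 to 482 FPKM. LOX4 rose from 1.07 to 21.1 FPKM and LOX3 from 5.00 to 18.1 FPKM. AOS reached 286 FPKM from 114, and OPR3, the last enzyme before beta-oxidation, 91.6 FPKM from 12.5. The allene oxide cyclases differed among themselves: AOC1 rose 8.12-fold, AOC2 4.2-fold, AOC3 15.7-fold from 0.54 FPKM, and AOC4 1.29-fold. JAR1, which joins jasmonate to isoleucine, and the receptor COI1 were not called and stood at 26.4 and 25 FPKM and at 14 and 11.8 FPKM.

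Downstream, MYC2 rose from 9.94 to 78 FPKM (log2 ratio 2.97, SE at most 0.73). JAZ1 rose 15.8-fold to 42.1 FPKM, JAZ2 4.11-fold to 55.1 FPKM, JAZ5 11.1-fold to 12.3 FPKM, JAZ9 7.3-fold to 309 FPKM and JAZ10 7.59-fold to 11.2 FPKM. Among the JAZ members of the list JAZ9 and JAZ6 were the most abundant in both groups on the per-length FPKM scale, JAZ6 at 36.7 and 110.0 FPKM. JAZ7 and JAZ8 had large ratios and were not called, at 0.108 and 25.6 FPKM and at 0.135 and 2.85 FPKM. The target VSP1 rose from 1.23 to 77.7 FPKM (log2 ratio 5.98, SE at most 1.47) and VSP2 from 2.87 to 114 FPKM. CYP94C1, which oxidises the active hormone, rose 15.2-fold to 5.14 FPKM. PDF1.2, a defensin of the branch that jasmonate shares with ethylene, rose 1.49-fold only, and JMT, which methylates jasmonate, was at 3.13 and 3.63 FPKM and was not called.

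**Figure D3:**
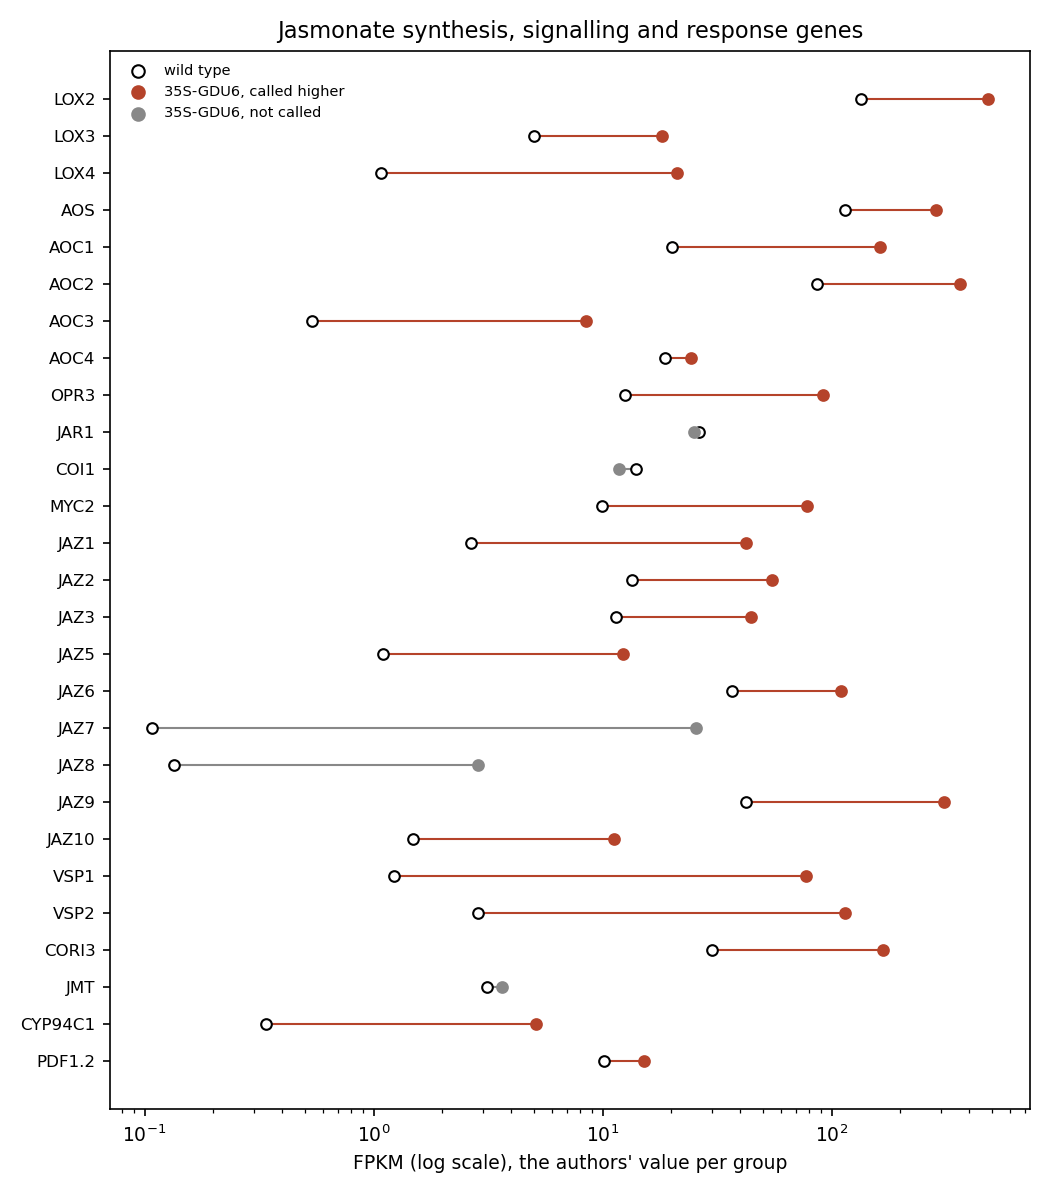
FPKM of each tested jasmonate list member in wild type and in 35S-GDU6 (x axis, log scale), in list order starting with the biosynthesis genes, as open circles (wild type) and filled circles (35S-GDU6, red where called higher and grey where not called) joined by a line. The called members lie to the right in 35S-GDU6, while JAR1 and COI1 hardly move.

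MYC2 binds the G-box CACGTG, which reads the same on both strands. The G-box was found in the 250 bases before the annotated start of 5 of 27 jasmonate members (18.5%), against 7.51% of 15348 tested protein-coding genes. It is not particular to this list: 6 of 15 members of the circadian clock list below held it (40%). Among protein-coding genes called at least 2-fold higher the share was 10.3%. The upstream windows of JAZ2 (chr1:28150447-28150696, minus strand) and JAZ3 (chr3:6119457-6119706, plus strand), from RefSeq TAIR10.1, are shown 5′ to 3′ because both genes rose and carry it, with the G-box in capitals. A match is a description of letters and not a bound site.
JAZ2: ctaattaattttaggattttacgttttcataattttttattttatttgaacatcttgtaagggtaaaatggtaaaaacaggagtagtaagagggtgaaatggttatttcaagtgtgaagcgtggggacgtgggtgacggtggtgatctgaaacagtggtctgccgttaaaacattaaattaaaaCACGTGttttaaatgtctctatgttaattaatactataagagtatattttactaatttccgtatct
JAZ3: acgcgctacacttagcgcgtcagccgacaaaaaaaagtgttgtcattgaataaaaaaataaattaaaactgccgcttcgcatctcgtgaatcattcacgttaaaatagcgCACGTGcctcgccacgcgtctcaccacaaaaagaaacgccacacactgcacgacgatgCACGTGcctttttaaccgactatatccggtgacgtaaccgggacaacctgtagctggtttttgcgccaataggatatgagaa
JAZ2 holds 1 G-box and JAZ3 holds 2. JAZ3 rose from 11.4 to 44.7 FPKM, on a stretch shared by 69 entries, with q = 0.0085 in the authors' deposited table.

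Genes that respond quickly to touch and wounding rose as a group: 10 of 10 tested members were higher, with a median log2 ratio of 2.48. TCH4, a xyloglucan endotransglucosylase, rose from 11.8 to 117 FPKM, and TCH3, a calmodulin-like protein, from 42 to 243 FPKM. The zinc-finger genes SZF1 and SZF2 rose 7.67-fold and 4.7-fold, and ERF105 7.16-fold. Such genes are known to respond within minutes of handling. The labels do not say how plants were handled at collection, and its part in the jasmonate, ethylene and touch counts was not tested.

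In the ethylene list 10 of 12 tested members were higher and 1 lower (median 0.84). Among its called members the gains were largest in ERF transcription factors: ERF6 rose from 1.3 to 33.1 FPKM, ERF2 from 3.53 to 49.3 FPKM, ERF5 9.97-fold and ERF104 5.02-fold. ACS6, an enzyme of ethylene synthesis, rose 2.59-fold, and ACS11 of the same family, which is not on the list, 23.4-fold. EIN3, the central transcription factor of the pathway, rose 1.42-fold.

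Salicylic acid and pipecolic acid carry the other main arm of leaf defence. Here 27 of 30 tested members were higher and 2 lower, with a median log2 ratio of 0.95. The marker PR1 rose from 9.73 to 197 FPKM (log2 ratio 4.34, SE at most 1.07), on a stretch shared by 7 entries. UGT76B1, which glycosylates salicylic acid and related defence compounds, rose from 0.129 to 2.6 FPKM, and the glutaredoxin GRX480 from 0.661 to 7.72 FPKM. The regulators SARD1 and CBP60G rose 4.25-fold and 4.99-fold, and ALD1, which makes the precursor of pipecolic acid, 8.34-fold from 0.300 FPKM. The enzyme of salicylic acid synthesis, ICS1, moved less, from 10.3 to 14.1 FPKM, and so did PBS3, EDS1 and PAD4, at 1.22-fold, 1.5-fold and 1.5-fold. ACD6, a membrane protein that promotes salicylic acid signalling, fell from 115 to 68.9 FPKM. The other member called lower was SARD4, a gene of pipecolic acid synthesis like ALD1, from 16.4 to 13.6 FPKM. FMO1 rose from 8.27 to 10.9 FPKM only.

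Of 18 tested genes of pattern-triggered immunity and camalexin synthesis, 13 were higher and 0 lower (median 1.57). WRKY53 rose from 0.887 to 21.7 FPKM, WRKY40 from 1.11 to 25.3 FPKM and WRKY33 from 6.43 to 56.4 FPKM. CYP81F2, an enzyme of indole glucosinolate modification, rose 13.9-fold, and PAD3, the last enzyme of camalexin synthesis, 4.08-fold to 4.15 FPKM. The pattern receptors FLS2 and EFR were not called, at 6.37 and 6.69 FPKM and at 3.17 and 3.37 FPKM. The chitin receptor CERK1 rose 1.3-fold, so the large gains were in response genes and not in receptors. Without entries on stretches shared with other entries, 7 members were higher and the median was 0.80.

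Abscisic acid is the hormone of water deficit. 19 of 26 tested members of the abscisic acid, drought and cold list were higher and 2 lower, with a median of 1.49. NCED3, the rate-limiting enzyme of its synthesis under drought, rose from 1.55 to 11.9 FPKM, and CYP707A3, which breaks it down, from 0.96 to 7.94 FPKM. The target RD29B rose from 0.0817 to 3.55 FPKM, RD29A from 5.25 to 25.2 FPKM, RAB18 from 10.3 to 35.9 FPKM and COR15A from 49.4 to 225 FPKM. Negative regulators rose as well, with the phosphatases HAI1 at 19.3-fold, HAI2 at 15-fold and ABI1 at 2.18-fold. The receptor PYL4 fell from 41.9 to 19.2 FPKM and PYL6 from 1.79 to 0.475 FPKM, whereas PYL5 rose from 4.73 to 9.87 FPKM.

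Proline accumulates under water deficit. P5CS1, the first enzyme of its synthesis, rose from 54.3 to 374 FPKM (log2 ratio 2.78, SE at most 0.69), and ERD5, the proline dehydrogenase that starts its breakdown, from 5.45 to 22.8 FPKM. ERD5 is also 95792 bases from GDU6 on chromosome 3. In the whole list of proline, branched-chain amino acid and lysine metabolism, 10 of 15 tested members were higher and 3 lower (median 0.51). Breakdown enzymes were among the higher ones: the branched-chain aminotransferase BCAT2 rose from 0.16 to 1.75 FPKM, the lysine-degrading LKR from 2.66 to 6.25 FPKM and the leucine-degrading MCCA from 10.2 to 21.6 FPKM. The plastid aminotransferase BCAT3, which acts in synthesis, fell from 130.2 to 98.7 FPKM.

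Genes that darkness and sugar shortage induce were the list with the third-highest median, 2.11, after jasmonate and touch. 13 of 14 tested members were higher and 1 lower. BT2, a BTB-domain protein repressed by sugar, rose from 3.47 to 149.6 FPKM (log2 ratio 5.43, SE at most 1.34). DIN1 (SEN1), the classic dark-induced gene, rose from 9.25 to 123 FPKM, DIN10, which encodes a raffinose synthase, from 26.2 to 141 FPKM, and the dormancy-associated gene DRM1 from 5.65 to 67.2 FPKM. The class II trehalose phosphate synthases TPS8, TPS9, TPS10 and TPS11 rose 3.95-fold, 2.83-fold, 3.99-fold and 5.77-fold. The transcription factor BZIP1, which acts under low energy, rose from 6.95 to 32.1 FPKM, whereas BZIP11, whose transcript accumulates with sugar, fell from 7.08 to 2.42 FPKM. DIN2 is listed at 0 in wild type and at 0.921 FPKM in the line.

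ASN1, asparagine synthetase and itself a dark-induced gene (DIN6), rose from 3.51 to 100.4 FPKM (28.6-fold, log2 ratio 4.84, SE at most 1.19). Most other genes of glutamine, glutamate, asparagine and GABA metabolism went the other way, with 12 of 22 tested members lower and 6 higher (median -0.23). The plastid glutamine synthetase GLN2 fell from 1537 to 1138 FPKM, and GLU1, the glutamate synthase that works with it in leaves, from 446 to 328 FPKM. The cytosolic glutamine synthetases split: GLN1;1 rose from 30.0 to 48.7 FPKM, and GLN1;2 and GLN1;4 fell from 259 to 220.4 FPKM and from 5.71 to 2.28 FPKM. The glutamate dehydrogenases GDH1 and GDH2, which release ammonium from glutamate, rose 1.8-fold and 2.49-fold. The glutamate decarboxylase GAD4 fell from 2.13 to 0.482 FPKM.

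Nitrate assimilation followed a similar split, with 5 of 10 tested members lower and 2 higher (50% and 20%, against 23.9% and 24.9% of all tested entries, median -0.07). Nitrite reductase NIR1 fell from 145 to 78.6 FPKM, the nitrate transceptor NRT1.1 from 40.5 to 26.3 FPKM and the ammonium transporter AMT1;2 from 12.9 to 6.06 FPKM. NRT1.7, which remobilises nitrate from old leaves through the phloem, rose from 14.6 to 28.7 FPKM.

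Amino acid export is the process that GDU over-expression is known for, and the UMAMIT family of exporters was close to evenly divided. 9 of 27 tested entries were higher and 8 lower, near the shares over all entries, with a median of -0.03. UMAMIT33, described above, was the exception by size, and the next gains were those of UMAMIT6, from 2.81 to 4.67 FPKM, and UMAMIT29, from 1.04 to 1.67 FPKM. UMAMIT36 fell from 1.34 to 0.364 FPKM and UMAMIT17 from 24.3 to 12.3 FPKM. Importers were more often higher, 11 of 21 against 4 lower (52.4% and 19%, against 24.9% and 23.9% of all tested entries, median 0.34). CAT1, a carrier of cationic amino acids, rose from 0.172 to 0.898 FPKM, and LHT1, a main importer of leaf cells, from 4.35 to 10.04 FPKM. AAP6 fell from 37.1 to 16.9 FPKM and the proline carrier PROT3 from 4.92 to 2.42 FPKM.

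Leaf senescence genes were mostly higher, 10 of 12 with 0 lower (median 1.6). The senescence regulators ORE1 and NAP rose from 0.343 to 2.37 FPKM and from 3.34 to 10.9 FPKM, and SAG13 from 4.5 to 16.2 FPKM. SAG12, the marker of late senescence, is listed at 0 in both groups, and SGR1, which starts chlorophyll breakdown, was at 10.7 and 10.9 FPKM and was not called.

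The circadian clock runs on morning genes and on day and evening genes. The morning genes CCA1 and LHY and many of the day and evening genes (PRR5, TOC1, GI, the ELF and LUX genes) repress each other. RVE8 is a morning gene too and is not counted among these repressors. The 3 members called lower were CCA1, LHY and RVE8. CCA1 fell from 64 to 38 FPKM, LHY from 22.1 to 8.39 FPKM and RVE8 from 22.6 to 12.1 FPKM. PRR5 rose from 1.1 to 11.7 FPKM, TOC1 from 3.89 to 9.92 FPKM, GI from 8.11 to 16.7 FPKM and the blue-light receptor FKF1 from 0.0809 to 0.964 FPKM. In all 10 of 15 tested members were higher and 3 lower (median 0.58), and PRR9 and ZTL were not called. RVE1, which also peaks in the morning, was among the higher ones, from 11.3 to 16.3 FPKM. The design text says only that leaves of these lines and wild type were collected at the same time. Clock transcripts change with the hour of the day, and the part of the hour of collection was not tested.

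**Figure D4:**
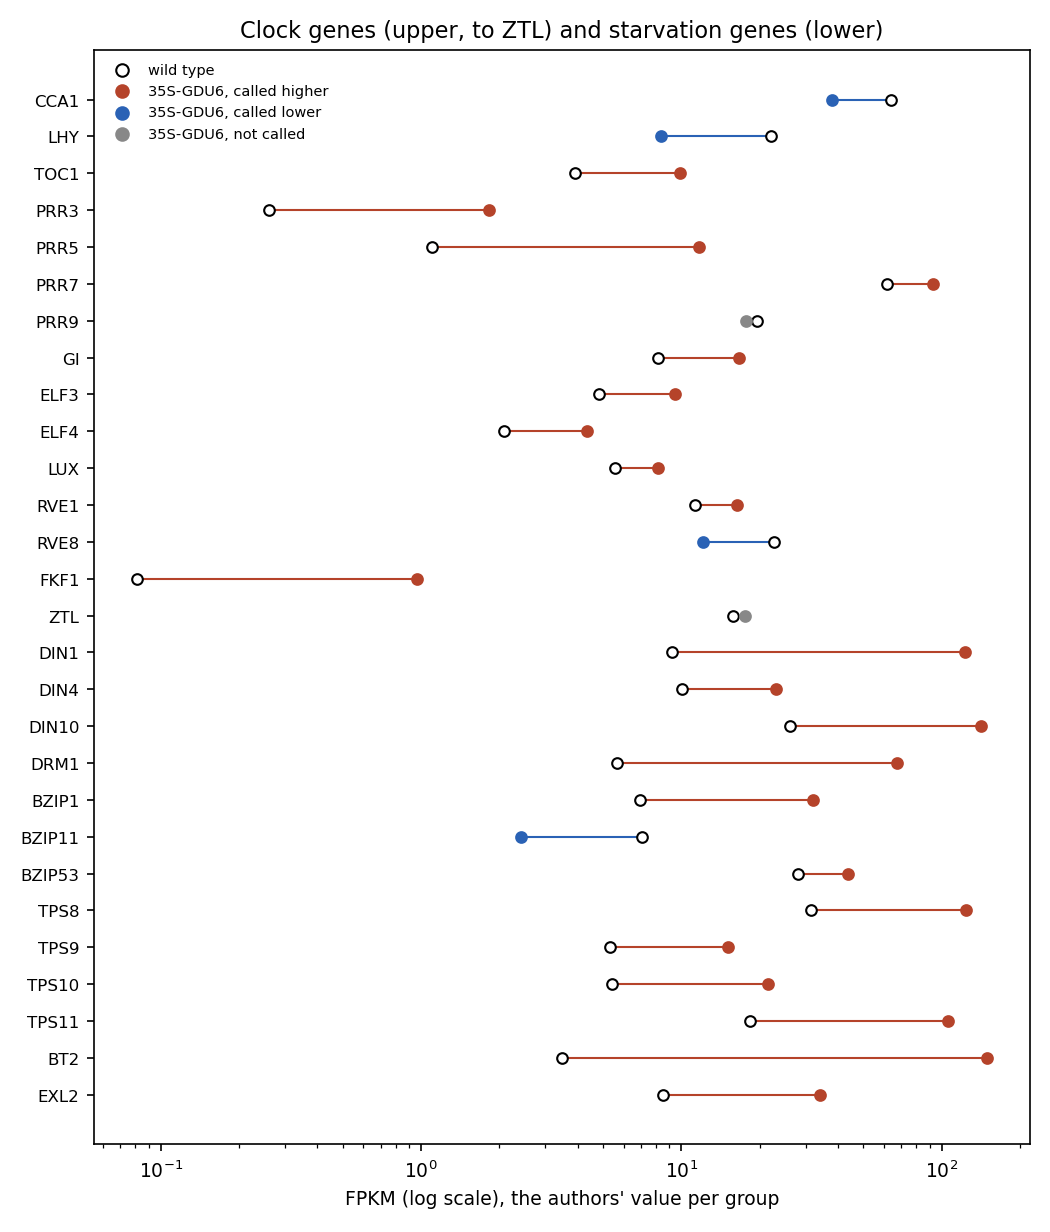
FPKM of circadian clock genes and of dark and sugar starvation genes in wild type and in 35S-GDU6 (x axis, log scale), as open circles (wild type) and filled circles (35S-GDU6, red where called higher, blue where called lower, grey where not called) joined by a line. CCA1, LHY and RVE8 lie lower in the line, PRR5, TOC1 and GI higher, and all starvation genes shown but BZIP11 lie higher.

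The evening element AAAATATCT (either strand) is bound by CCA1, LHY and RVE8. It was found in the 250 bases before the start of 4 of 15 clock members (26.7%), 60 of 1062 protein-coding genes called at least 2-fold higher (5.65%) and 2.69% of all tested ones. The windows of PRR5 (chr5:8358547-8358796, minus strand) and TOC1 (chr5:24674713-24674962, plus strand) of TAIR10.1 are shown because these 2 evening genes rose. The element is in capitals and lies on the opposite strand in both, so it reads as its reverse complement.
PRR5: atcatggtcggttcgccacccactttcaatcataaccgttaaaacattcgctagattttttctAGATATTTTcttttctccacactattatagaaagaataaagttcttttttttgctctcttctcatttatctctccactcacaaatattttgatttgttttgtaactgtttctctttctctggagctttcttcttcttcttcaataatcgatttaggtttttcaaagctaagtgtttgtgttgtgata
TOC1: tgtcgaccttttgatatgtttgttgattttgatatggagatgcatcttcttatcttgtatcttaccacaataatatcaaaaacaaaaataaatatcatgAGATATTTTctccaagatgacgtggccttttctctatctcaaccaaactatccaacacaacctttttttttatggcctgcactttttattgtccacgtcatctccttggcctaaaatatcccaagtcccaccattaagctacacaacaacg

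Of 13 tested genes of the floral transition 4 were higher and 3 lower (median 0.18), shares (30.8% and 23.1%) near the 24.9% and 23.9% of all tested entries. FT, the mobile signal made in leaves under long days, rose from 0.836 to 4.85 FPKM, SOC1, its target, from 45.8 to 92.5 FPKM and FUL from 1.55 to 2.73 FPKM. The joined entry of the repressors MAF4 and MAF5 fell from 6.35 to 3.4 FPKM. LFY and AP1, which mark floral meristems, are listed at 0 in both groups.

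Losses were widespread in the machinery of translation. This was noticed in the values first, and the gene classes used for it were then formed from the product names of the RefSeq annotation, so the counts describe these libraries and are no independent evidence. Each class is a match by product name, so it can take in related or other proteins. The ribosomal protein class also pools genes of cytosol and organelles. Of 287 tested genes of the ribosomal protein class 229 were lower (79.8%, against 23.9% of all tested entries) and 10 higher. Their median log2 ratio was -0.55, and 7 were called at least 2-fold lower, so most of the losses were small. The RPSAb gene, for the small-subunit protein SA, fell from 7.98 to 2.82 FPKM. The only member called at least 2-fold higher was AT3G08520 of the L41 family, given above. Among the other higher members were AT5G24490 (1.99-fold) and AT3G14595 (1.93-fold). Translation factors were lower in 42 of 64 and higher in 6 (median -0.29), with the cap-binding EIF4E from 50.5 to 32.7 FPKM. Nucleolar and rRNA-processing proteins were lower in 20 of 33 and higher in 2 (median -0.44). Among them fibrillarin (FIB2), which methylates rRNA, fell from 28.1 to 9.61 FPKM. The name classes of RNA helicases (32 of 55 lower, 1 higher), aminoacyl-tRNA synthetases (22 of 45 lower, 5 higher) and chaperonins (13 of 18 lower, 1 higher) went the same way. Through the match by name, the higher members include SAMBA in the synthetase class, and the 1 higher in the chaperonin class is RbcX1. In leaf RNA a smaller share of growing cells and less transcript per cell cannot be told apart.

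Promoters of ribosomal protein genes are known for the telo-box AAACCCTA and the site II element TGGGCC. The telo-box was sought on either strand of the 250-base window. It was found in 43 of the 287 genes of the ribosomal protein class (15%, against 3.68% of all tested protein-coding genes). The site II element was found in 133 (46.3%, against 17.8%). Among 356 protein-coding genes called at least 2-fold lower the shares were 4.49% for the telo-box and 12.4% for site II. The windows of AT2G37600 (chr2:15775375-15775624, minus strand) and AT4G13170 (chr4:7656595-7656844, minus strand) of TAIR10.1 show the telo-box in capitals, on the opposite strand in the first and as spelled above in the second. They were chosen as ribosomal protein genes that fell.
AT2G37600: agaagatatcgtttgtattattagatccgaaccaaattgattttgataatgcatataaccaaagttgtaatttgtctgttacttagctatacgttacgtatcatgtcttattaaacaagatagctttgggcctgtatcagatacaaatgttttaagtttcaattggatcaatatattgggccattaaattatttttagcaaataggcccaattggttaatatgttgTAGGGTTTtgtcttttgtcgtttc
AT4G13170: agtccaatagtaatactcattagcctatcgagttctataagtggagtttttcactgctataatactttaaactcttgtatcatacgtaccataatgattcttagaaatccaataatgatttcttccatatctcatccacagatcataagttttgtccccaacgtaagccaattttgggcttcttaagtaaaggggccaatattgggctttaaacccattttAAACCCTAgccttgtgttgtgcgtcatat
AT2G37600 fell from 103 to 59.7 FPKM and AT4G13170 from 90.5 to 52.3 FPKM, with log2 ratios of -0.79 in both, a larger loss than the class median of -0.55.

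Genes of cell division were lower as well: 10 of 14 tested members of the cell cycle list were lower and 0 higher (median -0.52). The mitotic cyclin CYCB2;1 fell from 4.35 to 1.56 FPKM, CYCA1;1 from 3.92 to 1.75 FPKM, the plant-specific kinase CDKB2;1 from 7.26 to 4.5 FPKM and the replication clamp PCNA1 from 11.3 to 6.89 FPKM. The 3 D3 cyclins and CYCB1;1 were not called, and CYCB1;1 was at 7.37 and 8.6 FPKM. In the classes formed by product name after seeing the values, kinesins were lower in 20 of 36 and higher in 1, and histones lower in 16 of 34 and higher in 2.

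Cytokinin, which promotes division, had 10 of 18 tested members lower and 3 higher (median -0.63). Besides ARR15 and IPT3, the response regulators ARR6, ARR7 and ARR16 fell from 30.0 to 13.5 FPKM, from 43.8 to 24.2 FPKM and from 18.6 to 7.82 FPKM. The receptor HK4 fell from 6.83 to 2.87 FPKM, while HK3 rose from 24.9 to 32.1 FPKM. LOG1, which activates cytokinin, rose from 17.8 to 28.7 FPKM.

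Markers of the stomatal lineage and guard cells were lower in 9 of 13 tested members and higher in 0 (median -0.55). SPCH, which starts the lineage, fell from 1.9 to 0.528 FPKM, MUTE, which acts next, from 1.49 to 0.524 FPKM and the peptide EPF2 from 1.48 to 0.417 FPKM. The potassium channel KAT1 of mature guard cells fell from 16.6 to 8.47 FPKM and MYB60 from 17 to 9.49 FPKM. OST1, which acts in abscisic acid signalling of guard cells, was at 18.9 and 18.21 FPKM and was not called. The summed level of the markers was 86.7 FPKM in wild type and 59.3 FPKM in the line.

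Genes of cell wall loosening went both ways. 6 of 16 tested entries were higher and 8 lower (37.5% and 50%, against 24.9% and 23.9% of all tested entries). The expansins EXPA1, EXPA3, EXPA5, EXPA8 and EXPA10 fell, EXPA1 from 367 to 212 FPKM and EXPA5 from 55.4 to 30.3 FPKM. The xyloglucan endotransglucosylases XTH22 (TCH4), XTH25 and XTH15 rose 9.92-fold, 9.11-fold and 6.66-fold, whereas XTH31 fell from 102 to 31 FPKM, XTH9 from 47.7 to 32.1 FPKM and XTH8 from 13 to 10.8 FPKM. Water channels were mostly higher, 12 of 17 with 3 lower, by small ratios (median 0.27). The tonoplast channel TIP2;2 rose from 144 to 249 FPKM and the plasma membrane channel PIP1C from 172 to 285 FPKM.

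For auxin 9 of 15 tested members were higher and 1 lower (median 0.87). YUC8, an enzyme of auxin synthesis, rose from 0.102 to 1.18 FPKM, and the conjugating enzyme GH3.5 from 0.879 to 5.08 FPKM. Of 16 gibberellin and brassinosteroid genes 6 were higher and 6 lower (37.5% each, against 24.9% and 23.9% of all tested entries). GASA14 rose from 13.1 to 34.6 FPKM and the gibberellin receptor GID1B from 1.15 to 2.51 FPKM, and the synthetic enzyme GA20OX1 fell from 3.29 to 1.92 FPKM.

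The photosynthesis list had a median log2 ratio near 0. Of 22 tested members 1 was higher and 8 were lower (median -0.05). RBCS1B fell 2.02-fold, while the Calvin cycle enzymes SBPASE, GAPA, GAPB and PRK fell with log2 ratios of -0.43 to -0.20. Of the light-harvesting genes on the list LHCB1.3 (CAB1 above) rose from 15649 to 18039 FPKM, and the others tested were not called. LHB1B1 and LHB1B2, which are not on the list, rose 1.65-fold and 1.26-fold. RBCS1A, RBCS2B and RBCS3B are listed at 0 in wild type with a failed estimate and were not used.

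Flavonoid synthesis was lower in 6 of 10 tested members and higher in 2 (median -0.72). The early enzymes chalcone synthase (CHS, the TT4 gene above), CHI and F3H fell, CHI from 15.6 to 7.51 FPKM and F3H from 16.4 to 10.06 FPKM, and so did their activator MYB111, from 1.62 to 0.545 FPKM. DFR, the first enzyme of the anthocyanin branch, and its activator PAP1 rose from 0.765 to 1.83 FPKM and from 1.36 to 2.51 FPKM. Glucosinolate genes were higher in 12 of 20 and lower in 4 (median 0.26). The indole branch rose, with CYP79B2 and CYP79B3 at 2.05-fold and 2.56-fold and their activator MYB51 at 3.84-fold, whereas MYB34 and MYB28, which activate the indole and the aliphatic branch, fell from 19.8 to 12 FPKM and from 86.6 to 48.4 FPKM.

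Mineral nutrition showed no common direction. Of 16 tested iron genes 6 were higher and 7 lower (37.5% and 43.75%, against 24.9% and 23.9% of all tested entries, median -0.03). The iron-deficiency regulators BHLH101 and BHLH100 rose from 2.77 to 9.6 FPKM and from 8.27 to 15.7 FPKM, and NAS4 fell 3.29-fold. Of 14 phosphate and sulfate genes 4 were higher and 6 lower (28.6% and 42.9%), the higher share being near that of all tested entries. The phosphate genes PHO1, PHT1;4 and MGD3 fell 2.71-fold, 2.36-fold and 2.99-fold. The sulfur-response genes LSU1 and LSU2 moved in opposite directions, from 0.784 to 2.56 FPKM and from 29.3 to 8.36 FPKM.

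Among oxidative and mitochondrial stress genes 9 of 16 were higher and 7 lower (56.25% and 43.75%, against 24.9% and 23.9% of all tested entries, median 0.33). The iron superoxide dismutase FSD1 rose from 9.07 to 105 FPKM, and the copper/zinc enzymes CSD1 and CSD2 fell from 477 to 417 FPKM and from 1594 to 1098 FPKM. FSD1 and the copper/zinc enzymes remove the same radical and are known to replace each other with copper supply. The glutathione transferase GSTU25 fell from 2.24 to 0.113 FPKM, while GSTF6 rose from 18 to 92.8 FPKM and the alternative oxidase AOX1D from 0.152 to 1.5 FPKM. In the endoplasmic reticulum stress list 6 of 15 were higher and 0 lower (median 0.25), with BZIP60 from 18.4 to 43.3 FPKM, and the BiP chaperones BIP1, BIP2 and BIP3 were not called. Of 8 heat shock genes 2 were higher and 1 lower (25% and 12.5%, against 24.9% and 23.9% of all tested entries). HSFB2A rose 2.17-fold, and HSP101 fell from 2.29 to 1.45 FPKM. Genes of RNA silencing, which can act on transgenes, were higher in 3 of 15 and lower in 5 (20% and 33.3%, against 24.9% and 23.9% of all tested entries, median -0.15). AGO7, the Argonaute of trans-acting small RNAs, fell from 3.55 to 2.07 FPKM, and RDR1 rose from 3.2 to 4.5 FPKM.

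The samples behaved as leaf tissue by their markers. Of 10 root markers 5 are listed at 0 in both groups, and the list summed to 18.4 FPKM in wild type and 15 FPKM in the line, nearly all from SHR and SCR, which leaves also express. Both fell, with log2 ratios of -0.48 and -0.23. The 11 flower and pollen markers summed to 2.81 and 1.8 FPKM, 10 of them below 1 FPKM in both groups, and the 1 tested, AG, fell from 1.21 to 0.179 FPKM. Epidermis markers summed to 932 and 1169 FPKM (4 of 8 higher, 2 lower), with LTP1 from 649 to 877 FPKM and PDF1, a marker of the outer layer of young tissue, from 24.1 to 8.23 FPKM. Vascular markers summed to 635 and 627 FPKM (2 of 12 higher, 5 lower), with the sugar exporter SWEET12 from 11.6 to 39.5 FPKM. These marker counts stand beside 24.9% higher and 23.9% lower of all tested entries. The part of shifts in tissue makeup in the gene list counts was not tested.

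The neighbours of GDU6 on chromosome 3 went in both directions. QQS, an orphan gene known to affect leaf starch, lies 2623 bases before GDU6 and fell from 45.8 to 15.4 FPKM. AT3G30737, 7941 bases after it, was at 0.948 and 0.522 FPKM and was not called. Of the 5 nearest tested entries on each side 4 were higher, 3 lower and 3 not called.

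The other constitutive lines with a comparison were gdu1-1D, labelled as a mutant (3 libraries), and 35S-GDU2, 35S-GDU4 and 35S-GDU5, labelled as over-expressors (2 libraries each). The word mutant does not by itself mean loss of GDU1. The levels of GDU1 in gdu1-1D and of the named transgenes in the other lines are not reported here. All these lines were compared with the same wild type libraries, so their values are set side by side only. Each comparison was normalized on its own. GDU6 itself was called lower in gdu1-1D (6.76 FPKM), was not called in 35S-GDU4 (12.9 FPKM) and was called higher in 35S-GDU2 (36.4 FPKM) and 35S-GDU5 (60.6 FPKM). ASN1 was at 100.4 FPKM in 35S-GDU6 and at 15, 16.2, 7.4 and 35.2 FPKM in gdu1-1D, 35S-GDU2, 35S-GDU4 and 35S-GDU5. BT2 was at 149.6 FPKM and, in the same order, at 14.7, 16.6, 66.4 and 117 FPKM. Both genes thus stood highest in 35S-GDU6. PR1 stood higher in 3 of the other lines: it was at 197 FPKM in 35S-GDU6 and at 508, 440.4, 4.85 and 1359 FPKM. Chalcone synthase was at 25.1 FPKM in 35S-GDU6, lower than the 49.8, 78.7, 115 and 49.6 FPKM of the others. Over all tested entries 23.1% were called higher and 21.4% lower in gdu1-1D, 14.5% were called higher and 10.2% lower in 35S-GDU2, 9.65% were called higher and 5.71% lower in 35S-GDU4, and 28.5% were called higher and 26.5% lower in 35S-GDU5. Of 14 tested cell cycle genes, 35S-GDU6 had 0 higher and 10 lower, and gdu1-1D had the same counts. There were 0 higher and 3 lower in 35S-GDU2, 4 higher and 0 lower in 35S-GDU4 and 11 higher and 0 lower in 35S-GDU5. Photosynthesis genes were lower in 8 of 22 in 35S-GDU6, 20 of 20 in gdu1-1D, 18 of 22 in 35S-GDU2, 0 of 22 in 35S-GDU4 and 22 of 22 in 35S-GDU5. Differences between lines were not tested.

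Plants with dexamethasone-induced GDU1 (Dex-GDU1) have their own control, the parental line 4c-S7, and share no libraries with 35S-GDU6. Both of these groups were sprayed with 100 uM dexamethasone and 300 ppm Silwet and collected after 25 h, with 3 libraries of Dex-GDU1 and 4 of 4c-S7, so promoter, gene, treatment and control line all differ from the 35S-GDU6 comparison. Among 17068 entries tested in both, 2389 were called higher in both. These are 56% of those higher in 35S-GDU6 and 57.4% of those higher in Dex-GDU1, where 24.4% of these entries were higher. Lower in both were 2036, which are 49.5% and 54.2%, with 22% of entries lower in Dex-GDU1. 310 entries were higher in 35S-GDU6 and lower in Dex-GDU1. They are 7.27% of those higher in 35S-GDU6, against 22% of entries lower in Dex-GDU1. The reverse held for 505, which are 12.3% of those lower in 35S-GDU6, against 24.4% of entries higher in Dex-GDU1.

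The difference of both log2 ratios was tested per entry as a normal score with Benjamini-Hochberg adjustment over 17060 entries. With standard errors from p it was positive (more positive in 35S-GDU6) in 1968 entries (11.5%) and negative in 2029 (11.9%). With standard errors from Cuffdiff's statistic 1245 entries differed, and 1055 did so with both, 540 positive and 515 negative. In this test of the authors' deposited values, ASN1 had a log2 ratio of 4.84 here and of 0.52 in Dex-GDU1, a difference of 4.32 (SE at most 1.2, adjusted p = 0.00328). DIN1 had 3.74 and 0.78 (difference 2.95, adjusted p = 0.0119 from the p-values of the authors), and VSP1 5.98 and 1.19 (difference 4.79, adjusted p = 0.0106). The iron-deficiency regulators went the other way: BHLH39 had 0.40 here and 2.35 in Dex-GDU1 (difference -1.95, adjusted p = 0.00861 from the p-values of the authors). With errors from the statistic 11 of 13 starvation genes differed, all more positive in 35S-GDU6, as did 14 of 27 jasmonate genes and 7 of 10 touch genes. With errors from p the counts were 11, 3 (and 1 more negative) and 3. Of 16 iron genes 8 were more negative in 35S-GDU6, and 9 with errors from p. Genes of the ribosomal protein class were mostly lower in both comparisons. In Dex-GDU1 234 of 287 were lower and 4 higher, where 21.6% and 24.5% of all tested entries were lower and higher.

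**Figure D5:**
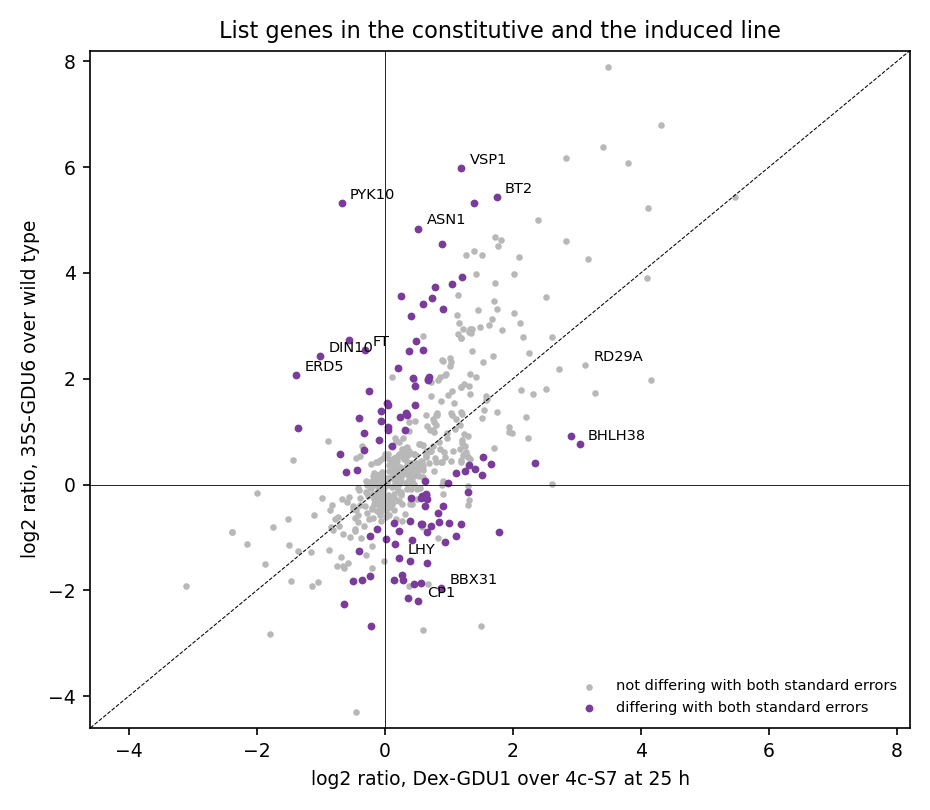
Log2 ratio of 35S-GDU6 over wild type (y axis) against that of Dex-GDU1 over 4c-S7 at 25 h (x axis) for list genes and largest changes tested in both other than GDU1 and GDU6, in purple where the difference passed with both standard errors and in grey elsewhere, with equal ratios on the dashed line. ASN1, VSP1 and BT2 lie far above the line, BHLH38 below it, and ERD5, DIN10 and FT are positive in 35S-GDU6 and negative in Dex-GDU1.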

How the data were processed

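RNA of leaves was sequenced in 2 libraries of 35S-GDU6 and 2 of Columbia wild type. The submitters' processing notes name TopHat2, Cufflinks, Cuffdiff and the TAIR10 build. Versions, annotation, strand setting and read numbers are not given in the sources used here. Per the file headers, the deposited FPKM is 1 value per gene and group, and each gene has an unadjusted p-value of Cuffdiff's test. The deposited q-value is its Benjamini-Hochberg adjustment. The deposited score is Cuffdiff's test statistic. Whether Cuffdiff took the 2 runs of a library as replicates is not given. Overlapping and antisense genes cannot be told apart. No column belongs to a sample outside the labels.

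From these values log2 ratios (35S-GDU6 over wild type) were computed with no pseudocount. A gene was tested where the table says so and called at q below 0.05. Standard errors were computed from p and, as an alternative, from the statistic, which is a median 0.521 times the normal score of p. The difference from Dex-GDU1 at 25 h was tested with both (Python 3.11.15, pandas 2.3.3, SciPy 1.17.1, Matplotlib 3.10.9). The step was also run on simulated data with normal errors and large changes in few genes. These data differ from that setting, so the simulation checks the calculation only and not the counts of differing entries. TAIR10.1 gave names, gene classes and 250-base windows. Of 30702 single-gene entries 10372 start at its gene start with 1 added to the listed start and 126 as listed, so 1 was added. 1179 tested entries join several genes and 5983 lie on a stretch shared with other entries, and both were kept. Not every named gene on such a stretch is marked in the text.

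Members and the 37 lists were chosen with earlier results of these data known. Named by rule were the GDU, LOG2 and LUL genes, the 15 largest changes per direction among single-gene entries with a symbol and at least 5 FPKM in either group, up to 5 called members per list with the largest log2 ratios, and the genes next to GDU6. Other named genes were chosen after their values were seen, for their role. Alternatives were other q limits, FPKM minimums, pseudocounts, centring, rescaling without GDU6, and leaving out joined or shared entries, the last chosen after seeing the data. Single-gene values of some list members are not reported here.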

Additional observations from a re-analysis of the deposited data

Results flagged for a closer look

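In 15 listed or largest-change genes the calls in 35S-GDU6 and in Dex-GDU1 at 25 h had opposite directions. Their difference of log2 ratios (35S-GDU6 minus Dex-GDU1) was at least 2 in size, with an adjusted p below 0.05 for both standard errors. With errors from p that limit adds nothing to the opposite calls, since 815 of 815 entries called in opposite directions passed it. With errors from the statistic as well, 461 passed. Both comparisons have separate controls and differ in gene, promoter and treatment, which cannot be told apart. Higher in 35S-GDU6 and lower in Dex-GDU1 were 5 genes. ERD5, the proline dehydrogenase, differed by 3.45 (2.06 against -1.38), DIN10 by 3.44 (2.43 against -1.01), the floral signal FT by 2.85 (2.54 against -0.31), the abscisic acid receptor PYL5 by 2.42 (1.06 against -1.36) and the sugar exporter SWEET12 by 2.02 (1.77 against -0.25). Lower in 35S-GDU6 and higher in Dex-GDU1 were the other 10. BBX31 differed by -2.83 (-1.95 against 0.88), CP1 by -2.73 (-2.20 against 0.53), GA2OX1, which inactivates gibberellin, by -2.67 (-0.89 against 1.78) and the glutamate decarboxylase GAD4 by -2.50 (-2.15 against 0.35). ELIP1 differed by -2.43 (-1.87 against 0.56), BGLU47 by -2.33 (-1.88 against 0.45), the trichome repressor TRY by -2.14 (-1.48 against 0.66) and the amino acid exporter UMAMIT17 by -2.09 (-0.98 against 1.11). FLS1 differed by -2.08 (-1.80 against 0.28) and the ammonium transporter AMT1;2 by -2.02 (-1.09 against 0.94).

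RBCS3B, a RUBISCO small subunit gene, was read at 8056 FPKM in 35S-GDU6 and is listed at 0 in wild type, with a failed estimate and no test. It lies on a stretch shared by 62 entries. It was picked out because a value stands in an entry that no comparison uses.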

How the results depend on the processing

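No paired analysis was possible because the deposited tables hold 1 value per gene and group, and for the same reason leaving out each library in turn was not run. The counts of called genes depended most on a limit of size: with a log2 ratio of at least 1, 1180 entries were higher and 382 lower, 876 and 177 with a pseudocount of 1, and 1187 and 376 after centring on the median. Of the 1562 entries called and changed at least 2-fold, 991 had at least 5 FPKM in either group. Of 371 list medians under alternatives 366 moved by less than the spread allowed and 5 moved more, none changing sign. With at least 5 FPKM the median was -0.062 for UMAMIT genes and 0.12 for floral transition genes, with a pseudocount of 1 it was 2.20 for jasmonate and -0.91 for flower markers, and without shared entries it was 0.80 for pattern-triggered immunity. A pseudocount shrinks ratios of low genes by its construction, and the other causes were not tested. No called entry changed sign on centring on the median of -0.0048 or on rescaling without GDU6 (a shift of -0.0037). Shifts this small could hardly change the sign of a called ratio. A pseudocount added to both groups cannot change a sign by its construction. The unchanged signs are thus no evidence on the directions. Without genes that are also on other lists the jasmonate median was 2.87 and the touch median 2.42. The difference from Dex-GDU1 was called in 1245 entries with standard errors from the statistic, 697 positive and 548 negative, against 1968 and 2029 with those from p. Depth is unknown, a single line and wild type were compared, and genes listed at 0 can be failed estimates.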

Other observations

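Gene classes formed from RefSeq product names after the values were seen describe further groups, each beside 24.9% higher and 23.9% lower over all tested entries. Autophagy genes, which serve recycling of cell contents, were higher in 11 of 16 and lower in 0 (median log2 ratio 0.33), and ATG8E, which coats the forming autophagosome, rose from 53.4 to 113 FPKM. Proteasome subunits were mostly not called, with 3 of 30 higher and 1 lower (median 0.03). Genes of U-box and RING proteins, the families that hold most plant ubiquitin ligases, were higher in 131 of 342 and lower in 40, and PUB23, a ligase that dampens immunity, rose from 0.453 to 5.52 FPKM.

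WRKY transcription factors were higher in 21 of 38 and lower in 5 (median 0.71), with WRKY18 from 4.05 to 15.9 FPKM. NAC factors were higher in 16 of 37 and lower in 8, and NAC019, a MYC2 target, rose from 0.457 to 8.68 FPKM. Genes of the calmodulin and EF-hand name class were higher in 44 of 81 and lower in 6. The class holds calcium-binding proteins and, through the match by name, also SARD1 of the salicylic acid list. Type 2C protein phosphatases were higher in 23 of 47 and lower in 5, and cytochromes P450 in 44 and 15 of 84. CYP81D8, a P450 that many stresses induce, rose from 1.35 to 5.63 FPKM, and CYP711A1 (MAX1), which acts in strigolactone synthesis, fell from 10.9 to 6.61 FPKM.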
